A study of Mus musculus with 6 samples.

Results

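Opposite-strand RNAs, named here os RNAs, are genes whose symbol is that of another gene followed by os, or by os and a digit, because they are read from the opposite strand of that host gene. They were taken from a TRAPseq table of skeletal muscle endothelium as every such symbol whose host is itself a row, with the Hox hosts left out. This gave 126 os RNAs with 123 hosts among 24062 genes, since Bcas3, Pcsk2 and Rab11fip4 have 2 os RNAs each. In TRAPseq a tagged ribosomal protein is made in one cell type and its ribosomes, with the RNAs bound to them, are pulled out of the whole tissue.

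The methods of the study describe the mice as ovariectomized GFP-L10aEC females. They carry a floxed-stop EGFP/Rpl10a fusion in the Rosa26 locus that VECad-Cre, driven by an endothelial promoter, switches on. Gastrocnemius and soleus were taken after 4 weeks of placebo pellets (vehicle, 3 libraries) or of 17β-estradiol pellets (E2, 3 libraries), and the tagged ribosomes were precipitated with a GFP antibody. By this description both groups share the sex, the surgery, the transgenes and the tissue. The labels give mice of 4 weeks, whereas the methods of the study place ovariectomy at a later age. Each library is labelled with 2 mouse numbers, and whether these mice were pooled is not given, so p-values measure only the spread between libraries.

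Many mammalian genes have a noncoding partner on the other strand. A natural antisense transcript can start near the start of its host and run away from it, or run across its exons, and some act on the chromatin, splicing or stability of the host RNA. Most are noncoding, yet some noncoding RNAs are found on ribosomes. Among the members, Dnm3os is known as the precursor of the miR-199a and miR-214 microRNAs, and os RNAs of developmental transcription factors such as Six3os1 and Otx2os1 are known from embryonic brain and eye.

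The libraries held 84823 (vehicle replicate 3) to 451034 counts (vehicle replicate 2), so that 1 count stood for 11.8 and 2.22 CPM (counts per 1e06 counts of the library) in these libraries. The ribosomal precursor Rn45s took 28.5% to 42.9% of the counts. The 4 Y-linked genes listed together had 40 and 63 counts in vehicle replicates 1 and 2 and none elsewhere, whereas the methods describe only females. Tsix, the X-linked RNA read across Xist on its other strand, had 0 counts in those 2 libraries and 29 in vehicle replicate 3, with 51, 91 and 37 in E2 replicates 1 to 3. Xist itself had 1, 1, 3, 6, 17 and 9 counts in the same order. Vehicle replicates 1 and 2 thus differ from every E2 library in Y-linked and Tsix counts as well as in treatment. In comparisons over all 6 libraries these differences are confounded in part, and the share of each was not tested. All 16 endothelial markers had a count, and their summed level was 983, 1042 and 307 CPM with vehicle and 143, 403 and 687 CPM with E2. The 14 skeletal muscle fiber markers held 96393, 74631 and 55044 CPM with vehicle and 46343, 52046 and 43112 CPM with E2, so RNA of the fibers was abundant in every library. Fewer cells of a type and less RNA per cell cannot be told apart in such bulk libraries. Results are therefore also given without vehicle replicate 3, and without vehicle replicates 1 and 2. The latter leaves 1 vehicle library, which is assumed to vary like the E2 libraries, so single fold changes against it are given without p-values.

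The 3 os RNAs whose groups did not overlap and whose level was highest are shown first by the sequence at their start, as the RefSeq promoter window of 250 bases before and 50 after the annotated start on build GRCm38.p6. In GENCODE M21 each of these 3 starts inside its host and runs across the start of the host. The exon bases shared with the host are 219 for Tomm6os, 94 for Rbm3os and 559 for Slfn5os. In the windows of Tomm6os and Rbm3os the capitals mark GGTCA, the half-site of the estrogen response element, which was searched on both strands (as GGTCA and TGACC). In the window of Slfn5os they mark the 129 bases that lie in coding exons of Slfn5 on the other strand.

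Tomm6os, chr17:47687360-47687659, plus strand: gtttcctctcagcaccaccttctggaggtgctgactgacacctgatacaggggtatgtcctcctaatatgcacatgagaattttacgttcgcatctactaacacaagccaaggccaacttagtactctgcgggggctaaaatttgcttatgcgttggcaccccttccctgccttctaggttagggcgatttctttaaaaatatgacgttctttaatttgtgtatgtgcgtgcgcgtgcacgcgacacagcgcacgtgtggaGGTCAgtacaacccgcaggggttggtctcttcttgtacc

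Rbm3os, chrX:8145177-8145476, plus strand: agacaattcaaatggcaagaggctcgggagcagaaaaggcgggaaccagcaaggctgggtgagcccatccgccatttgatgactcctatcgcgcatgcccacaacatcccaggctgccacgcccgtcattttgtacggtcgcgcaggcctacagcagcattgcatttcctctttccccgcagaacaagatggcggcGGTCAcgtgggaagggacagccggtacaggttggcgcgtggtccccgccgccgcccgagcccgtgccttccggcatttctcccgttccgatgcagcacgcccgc

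Slfn5os, chr11:82960632-82960931, minus strand: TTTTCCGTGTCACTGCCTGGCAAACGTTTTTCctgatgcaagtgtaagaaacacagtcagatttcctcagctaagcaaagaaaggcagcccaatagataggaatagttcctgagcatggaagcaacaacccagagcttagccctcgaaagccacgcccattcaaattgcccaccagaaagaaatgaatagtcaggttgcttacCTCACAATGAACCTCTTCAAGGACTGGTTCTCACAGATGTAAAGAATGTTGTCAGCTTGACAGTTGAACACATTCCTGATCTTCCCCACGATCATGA

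The half-site began at base 262 of the Tomm6os window, after the annotated start, and at base 197 of the Rbm3os window, 54 bases before the RefSeq start. Slfn5os had none in this window. Such a short word is common. It was in 40.5% of all 32851 promoter windows, in 42.9% of the 105 windows of 98 os RNAs and in 6 of 12 windows of tested os RNAs. The full palindrome GGTCANNNTGACC was in 23 of all windows (0.0700%) and in 0 of the windows of os RNAs.

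Os RNAs were detected about as often as other genes. A total of 71 of the 126 (56.3%) had a count in any library, against 58.4% of all genes. Of these 71, 31 had 1 to 9 counts and 40 had 10 or more over the 6 libraries, and the other 55 os RNAs had no count. The counts were concentrated, as Tomm6os held 15.9% of all 4005 os counts and the first 10 held 71.2%. With vehicle Slfn5os had more counts than Tomm6os (335 against 190). A count of 0 still allows 3 counts, or 6.65 to 35.4 CPM according to the library. The filter on low counts was passed by 16 os RNAs (12.7%) and by 6.99% of all genes.

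Detection varied with the arrangement of the pair on the genome. In GENCODE M21 (mm10) 123 os RNAs could be placed with their host and all 123 lay on the other strand. Of these 66 shared exon bases with the host (a median of 205 bases), 32 overlapped its body without shared exon bases, 19 lay apart head to head and 6 apart tail to tail. A count was present in 74.2% of those that shared exons, in 31.3% of those with overlapping bodies alone, in 36.8% of the head-to-head and in 50% of the tail-to-tail pairs. Of the 16 tested os RNAs, 13 shared exons with their host, Dnm3os lay inside the body of Dnm3 without shared exon bases, and Peg3os and Msx1os had a RefSeq position only.

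Os RNAs of developmental transcription factors were mostly at 0. The hosts were taken by the start of their symbol, from a list of families such as Fox, Sox, Pax, Gata and Tbx. Of 17 with such a host 4 had a count, whereas 67 of the other 109 did. With Zeb2, Zfhx2 and Crx added, which are not on that list, it was 6 of 20. Six3os1, Otx2os1, Pax6os1, Wt1os and Dlx6os1 had no count in any library. The exception was Msx1os, the partner of the limb and craniofacial homeobox gene Msx1, with 86 counts over the 6 libraries. Msx1 itself had 0 counts in all 6. Emx2os had 3 counts, Sox5os3 had 6 and Foxd2os had 1.

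In pairs that share exons the row of the os RNA was more often above that of the host per length of exon. Lengths are those of all GENCODE M21 exons of a gene joined, which need not be the exons used for counting. A longer joined length lowers the value per kb. It was 4698 bases for Rbm3 and 971 for Rbm3os, but 1131 for Tomm6 and 2944 for Tomm6os. Over the 93 placed pairs with a count the os RNA was higher per kb of exon in 57 and the host in 36. Of 57 pairs with 10 or more counts of both genes together, the os RNA was higher in 41 and the host in 16, and of 41 pairs whose host had 10 or more counts it was 26 and 15. Among 38 placed os RNAs that had 10 or more counts themselves, a choice that favours the os RNA, 37 were above the host, Cep83os being the exception with 11 counts against 20 for Cep83. Split by arrangement, it was the os RNA in 41 and the host in 12 of the 53 pairs with shared exons that had a count, 10 and 13 of the overlapping bodies without shared exons, 5 and 7 of the head-to-head pairs and 1 and 4 of the tail-to-tail pairs. The number of these 38 above the host was 37 without vehicle replicate 3, 38 without vehicle replicates 1 and 2, 35 in the vehicle libraries alone and 38 in the E2 libraries alone.

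**Figure D1:**
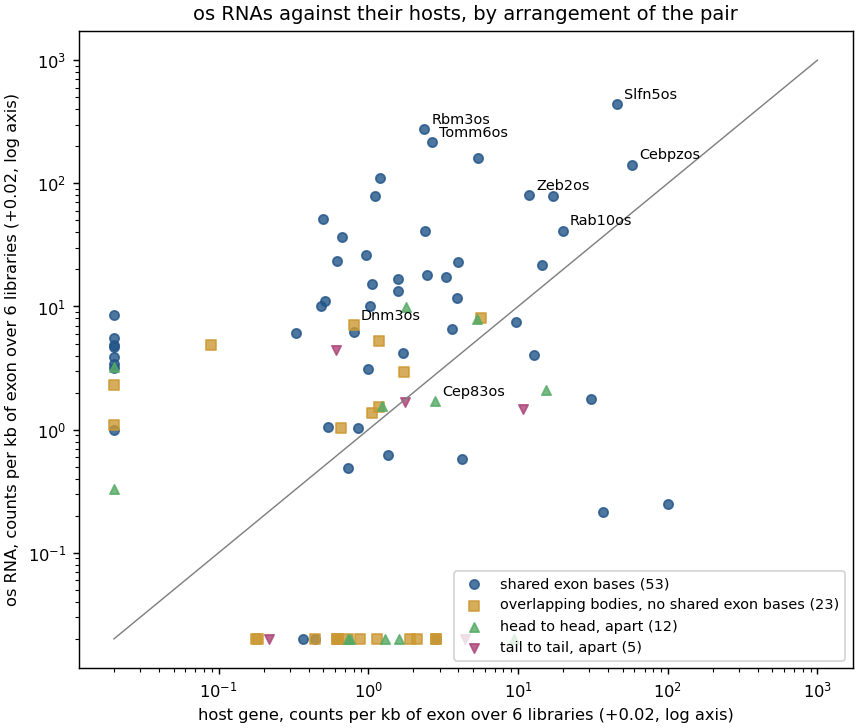
Counts per kb of exon over the 6 libraries of the os RNA (vertical axis, log) against its host (horizontal axis, log) for the 93 placed pairs in which either had a count, with symbols for the arrangement on the genome and a small constant added so that genes at 0 can be drawn at the edges. The grey line marks equal levels, and most pairs that share exons (41 of 53) lie above it.

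Several os RNAs with many counts had a host with few. Tomm6os had 638 counts and Tomm6, a small subunit of the protein import channel of the outer mitochondrial membrane, had 3. Rbm3os had 266 counts and Rbm3, a cold-induced RNA-binding protein, had 11. Per kb of exon, Tomm6os was 81.7 times and Rbm3os 117 times as high as the host over all libraries. Ino80dos was 92.5 times as high as Ino80d, a subunit of the INO80 chromatin remodeler, and Phtf1os 72.6 times as high as Phtf1. Slfn5os stood 9.67 times above Slfn5, an interferon-induced Schlafen gene. Lower ratios were found for Rab10os over Rab10, a small GTPase of vesicle traffic (2.07 times), and for Cebpzos over Cebpz (2.47 times), where the annotation types Cebpzos itself as protein coding. Among the 76 placed pairs with a count that the naming rule did not choose, the os RNA was higher per kb in 40 and the host in 36. The following pairs were picked after their values were seen. Zfhx2os had 49 counts and Zfhx2 9, and Scpep1os had 42 and Scpep1 1. In the other direction, Atcay had 402 counts and Atcayos 1, Zfp652 had 150 and Zfp652os 4, and Topors had 119 and Toporsos 2.

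Some os RNAs also share exon bases with a neighbour of the host. Tomm6os shares 1221 with Prickle4, which had 4 counts, and Slfn5os shares 151 with Unc45b, a myosin chaperone of muscle, which had 139.

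Which strand setting was used when reads were assigned to genes is not stated. The labels and the methods of the study name different library kits, a stranded one and one for ribosome profiling. If strand was not used, reads of an os RNA and of its host within the exon bases they share cannot be told apart. If a stranded library was counted with the opposite setting, reads of the host within the exon bases they share would stand in the row of the os RNA. The counts of Tsix were above those of Xist in each of the 4 libraries without Y-linked counts. The part of the strand setting in these levels was not tested. The same comparison was made for other genes. Among 369 other pairs of a noncoding and a coding gene that share exon bases on opposite strands, the noncoding partner was higher per kb in 191 of 263 pairs with 10 or more counts (72.6%). It was higher in 30 of 36 such pairs (83.3%) for the noncoding os RNAs.

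The os RNAs of a library were set against their hosts. The summed level of all os RNAs was 2088, 2304 and 4138 CPM in vehicle replicates 1 to 3 and 4121, 4191 and 3288 CPM in E2 replicates 1 to 3. The groups overlapped, because vehicle replicate 3 lay among the E2 libraries. The 123 hosts together held 2018, 2344 and 1933 CPM with vehicle and 2057, 2342 and 1572 CPM with E2, in which no library stood apart in the same way.

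The ratio of os to host counts was 1.03, 0.983 and 2.14 with vehicle and 2.00, 1.79 and 2.09 with E2. Vehicle replicates 1 and 2, the libraries with Y-linked counts, were near 1, and the other 4 were near 2. The mean log2 ratio was 0.60 higher with E2, with a pooled SD between libraries of 0.45. The difference was 0.96 without vehicle replicate 3 and -0.13 without vehicle replicates 1 and 2. Without Tomm6os and Tomm6 the ratio was 0.943, 0.895 and 1.89 with vehicle and 1.602, 1.41 and 1.57 with E2. Vehicle replicate 3 was the highest library with and without this pair.

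Other antisense pairs gave a like split of the libraries. In the 369 other pairs the ratio of noncoding to coding counts was 3.48, 3.29 and 14.9 with vehicle and 11.5, 9.21 and 8.88 with E2. Vehicle replicate 3 again lay with the E2 libraries, and the part of the sex-linked difference, of depth and of cell type in this split was not tested.

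**Figure D2:**
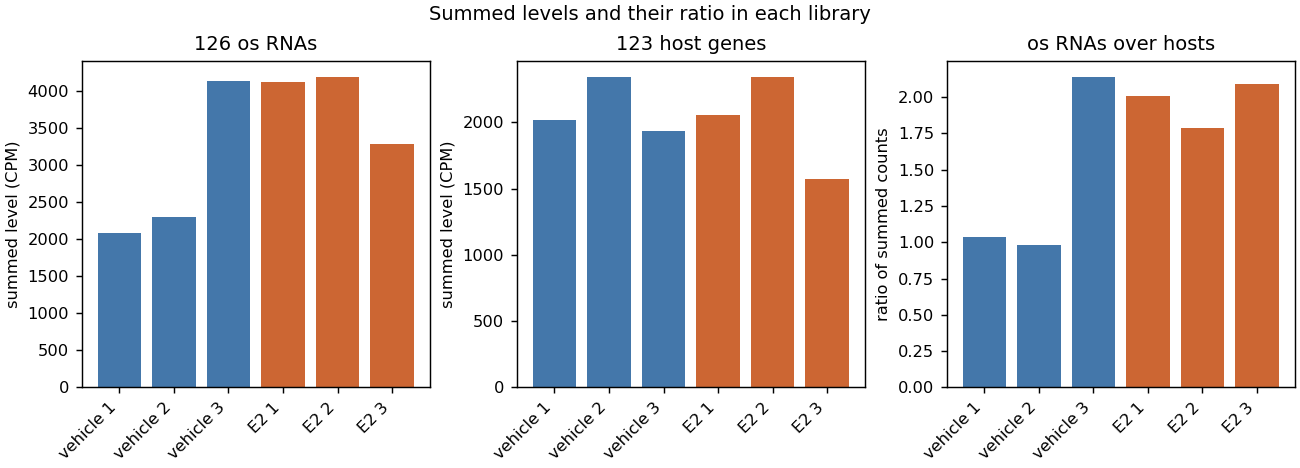
Summed level of the 126 os RNAs and of the 123 hosts in CPM, and the ratio of their summed counts, as 1 bar per library (blue, vehicle; orange, E2). The ratio is 1.03 and 0.983 in vehicle replicates 1 and 2 and lies between 1.79 and 2.14 in vehicle replicate 3 and the 3 E2 libraries.

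Single os RNAs were tested for a difference with E2 by edgeR's quasi-likelihood test over all 1682 genes that passed the filter, with Benjamini-Hochberg adjustment. One of the 16 os RNAs rose at an adjusted p below 0.05, where 2.5% of all genes tested did, and 0 fell, where 2.97% did. At an unadjusted p of 0.05 or less 3 rose and 0 fell, against 10.5% of all genes that rose and 15.1% that fell. The log2 fold change was above 0 for 11 os RNAs and below 0 for 5. Its median was 0.44, against 0.01 for all genes tested. Without vehicle replicates 1 and 2 the median of the 20 os RNAs then tested was -0.23, against 0.11 for all genes.

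Rbm3os, which lies on the X chromosome, was higher in the E2 libraries. Its level was 65.8, 93.1 and 189 CPM with vehicle and 230.3, 453 and 348 CPM with E2, from 16 to 90 counts a library. Its lowest libraries, vehicle replicates 1 and 2, are those with Y-linked counts. The part of this sex-linked difference in the fold change was not tested. Each E2 library was above each vehicle library, with vehicle replicate 3 (95% Poisson interval 108 to 306 CPM) close to E2 replicate 1 (154 to 331 CPM). The log2 fold change was 1.81 ± 0.50 (SE), with an adjusted p of 0.044 by edgeR. The call was lost when any 1 library other than vehicle replicate 3 was left out (adjusted p 0.0841 to 0.288 by edgeR), with log2 fold changes of 1.47 to 2.06. Without vehicle replicate 3 the log2 fold change was 2.36. Against vehicle replicate 3 alone the log2 fold change was 0.97.

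Tomm6os held the most counts of the os RNAs with E2. It was at 183, 208 and 507 CPM with vehicle and at 826, 902 and 821 CPM with E2. The 3 E2 libraries agree within their counting intervals and lay above every vehicle library, although vehicle replicate 3 (367 to 683 CPM) reached above the other 2 vehicle libraries. The log2 fold change of 1.68 ± 0.50 (SE) had an adjusted p of 0.0534 in edgeR and so did not pass the threshold. By DESeq2 the adjusted p was 0.022, and by edgeR without vehicle replicate 3 the log2 fold change was 2.37 with an adjusted p of 9.0e-06. When any 1 of the other 5 libraries was left out the adjusted p was 0.130 to 0.2999 by edgeR. Against vehicle replicate 3 alone the log2 fold change was 0.85.

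Fam219aos was the other os RNA with an unadjusted p under 0.05 (0.00916 by edgeR). Its 31.2, 55.4 and 106 CPM with vehicle and 183, 151 and 89.5 CPM with E2 overlapped between the groups. The log2 fold change was 1.42 ± 0.49 (SE), with an adjusted p of 0.0828 by edgeR. Rab10os had 156, 124 and 200.4 CPM with vehicle and 421, 237 and 179 CPM with E2. Its log2 fold change of 0.94 had an adjusted p of 0.215 by edgeR. Peg3os, the partner of the imprinted zinc finger gene Peg3, had a log2 fold change of 0.85 with an adjusted p of 0.345 by edgeR, and 1.55 with an adjusted p of 0.00344 without vehicle replicate 3. It was at 51.9 CPM in vehicle replicate 1 and 200.4 CPM in vehicle replicate 3.

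**Figure D3:**
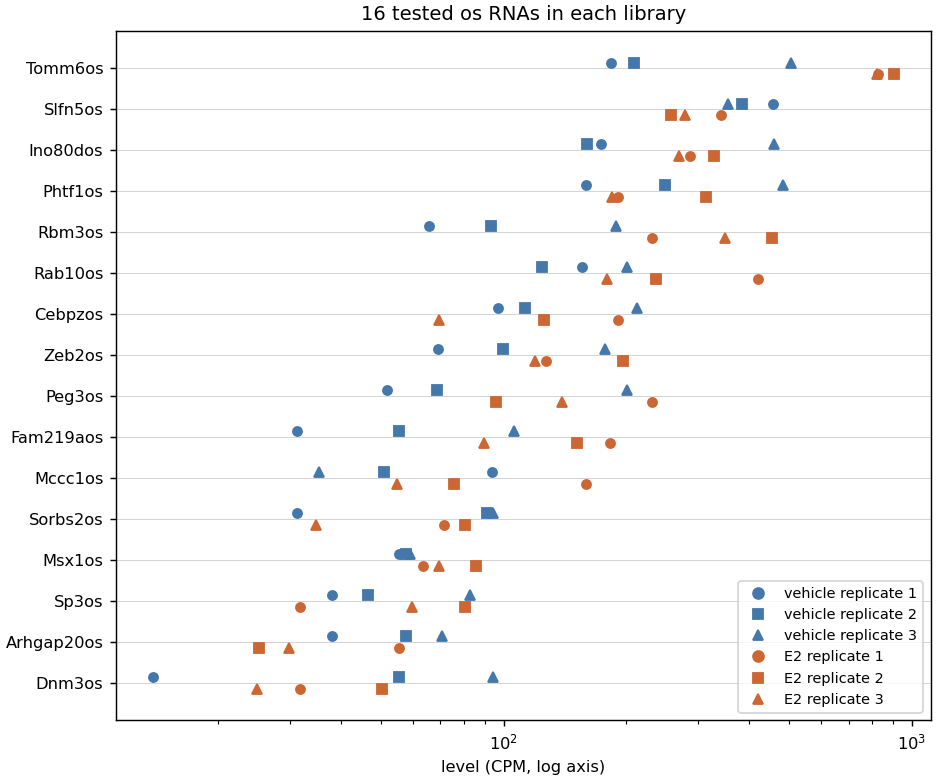
Level of the 16 tested os RNAs in each library in CPM on a log axis, with vehicle in blue above and E2 in orange below each line and 1 symbol per replicate number. Only for Tomm6os, Rbm3os and Msx1os do the E2 libraries all lie above, and for Slfn5os below, all vehicle libraries, and vehicle replicate 3 (blue triangles) is the highest vehicle library of 14 of the 16 os RNAs.

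There were 4 os RNAs with 10 or more counts that had all E2 libraries above all vehicle libraries and 1 with them below, where 6.17% and 10.5% of all genes with 10 or more counts did. Beside Rbm3os and Tomm6os the higher ones were Msx1os and Man2c1os. Msx1os held 55.4, 57.6 and 58.9 CPM with vehicle and 63.5, 85.6 and 69.6 CPM with E2, a small difference (log2 fold change 0.50, adjusted p 0.489 by edgeR). Man2c1os, whose host is a cytosolic alpha-mannosidase, was at 17.3, 17.7 and 23.6 CPM with vehicle and 47.6, 25.2 and 49.7 CPM with E2 and did not pass the filter on low counts. These levels rest on 2 to 10 counts a library.

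Slfn5os was the os RNA with lower E2 libraries. It had 457, 384 and 354 CPM with vehicle and 341, 257 and 279 CPM with E2. The gap between vehicle replicate 3 and E2 replicate 1 was small, and with libraries scaled by TMM the groups overlapped. The fitted log2 fold change was -0.32 ± 0.43 (SE), with an adjusted p of 0.688 by edgeR. Its host Slfn5 had 74, 131 and 14 counts with vehicle and 16, 31 and 22 with E2, a log2 fold change of -0.76 with an adjusted p of 0.272 by edgeR.

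The other 9 tested os RNAs had log2 fold changes between -0.43 (Arhgap20os) and 0.66 (Mccc1os), none with an unadjusted p of 0.05 or less. Zeb2os was at 0.58 ± 0.46 (SE), Sp3os at 0.38, Ino80dos at 0.34 and Cebpzos at 0.04. Phtf1os was at -0.21, Sorbs2os at -0.04 and Dnm3os at -0.24 ± 0.66 (SE). Without vehicle replicate 3, 7 of 16 os RNAs had an adjusted p below 0.05 by edgeR and all were higher with E2, where 22.1% of all genes then tested were higher and 24.3% lower. They were Rbm3os, Tomm6os, Fam219aos, Peg3os, Rab10os, Ino80dos and Zeb2os.

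**Figure D4:**
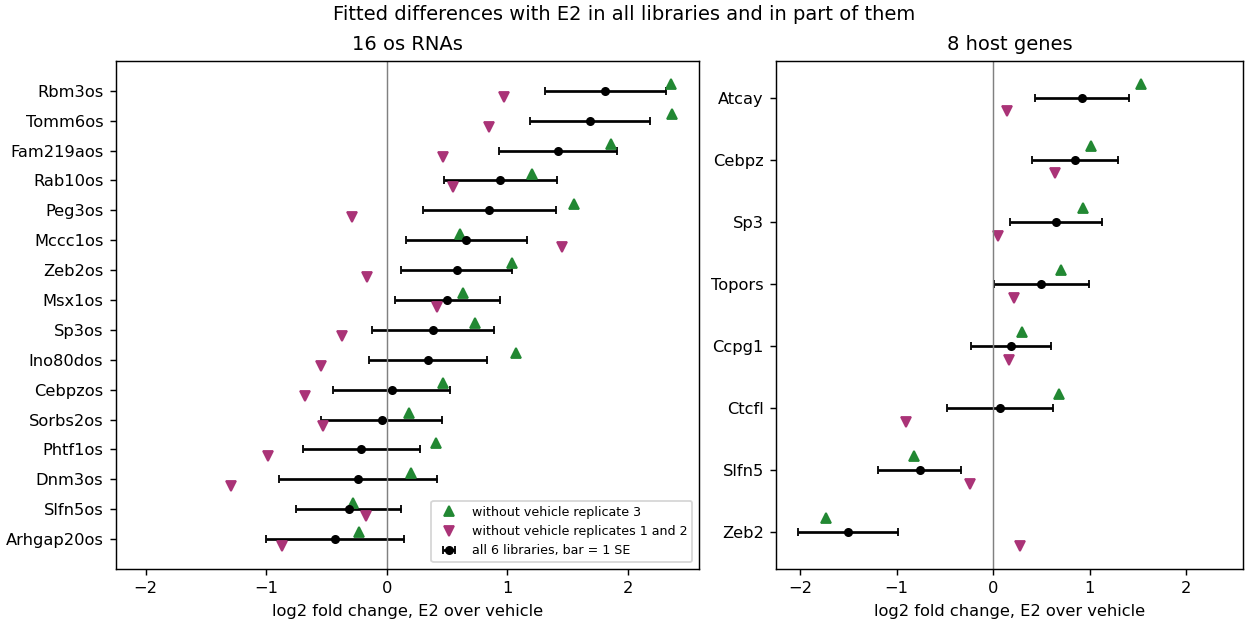
Log2 fold change of E2 over vehicle by edgeR for the 16 tested os RNAs (left) and the 8 tested hosts (right), with circles and bars of 1 SE for all 6 libraries, green triangles without vehicle replicate 3 and purple triangles without vehicle replicates 1 and 2. For 14 of 16 os RNAs the green triangle lies above 0, and for Zeb2 the circle lies at -1.51 and the purple triangle at 0.27.

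Dnm3os, the microRNA precursor, is long and was sparse. It had 56 counts over the 6 libraries, from 13.8 CPM in vehicle replicate 1 to 94.3 CPM in vehicle replicate 3, and 24.9 to 50.4 CPM with E2. Its body on chromosome 1 (162217623 to 162225550, plus strand, mm10) holds the hairpins Mir199a-2 and Mir214, which both had 0 counts. The mature RNAs that RefSeq places inside it are shown with the seed, bases 2 to 8, in capitals, because the seed is what pairs with targets. The 4 seeds differ from one another.

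miR-199a-5p: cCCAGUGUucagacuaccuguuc

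miR-199a-3p: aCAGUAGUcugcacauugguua

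miR-214-5p: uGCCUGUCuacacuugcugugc

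miR-214-3p: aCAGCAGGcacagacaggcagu

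Of the hosts 8 passed the filter and none reached an adjusted p below 0.05 by edgeR. The 1 host with an unadjusted p of 0.05 or less was Zeb2, an E-box binding zinc finger repressor, which fell by 1.51 on the log2 scale (SE 0.52, unadjusted p 0.00899 and adjusted p 0.0822 by edgeR). Zeb2 had 78, 118 and 5 counts with vehicle and 6, 19 and 11 with E2. Vehicle replicate 3 was as low as the E2 libraries, and without vehicle replicates 1 and 2 the log2 fold change was 0.27. Without vehicle replicate 3, 4 of the 8 hosts passed the adjusted threshold by edgeR. Of all genes then tested, 22.1% passed as higher and 24.3% as lower, so this count is near that share. The hosts were Zeb2 at -1.73 (adjusted p 0.000432), Atcay at 1.53 (0.000855), Cebpz at 1.01 (0.0164) and Slfn5 at -0.82 (0.0338). In all 6 libraries Cebpz was at 0.85, Atcay at 0.92 and Sp3, a transcription factor of GC boxes, at 0.65. Their adjusted p was 0.232, 0.234 and 0.401 by edgeR. Without vehicle replicates 1 and 2 the log2 fold change was 0.14 for Atcay, 0.64 for Cebpz and -0.24 for Slfn5.

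The os RNA and its host were both tested in 4 pairs, those of Slfn5, Cebpz, Zeb2 and Sp3. Zeb2os and Zeb2 lay on different sides of 0 (0.58 and -1.51). Slfn5os and Slfn5 were both below 0, and Sp3os and Sp3 both above it. Cebpzos was at 0.04 beside 0.85 for Cebpz. None of these 8 values passed the adjusted threshold in all 6 libraries. Those of Zeb2, Zeb2os, Cebpz and Slfn5 did by edgeR without vehicle replicate 3, where 22.1% of all genes were higher and 24.3% lower.

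Ratios of single pairs were compared for 25 pairs with 10 or more counts of both genes, after adding 0.5 counts to each. The mean log2 ratio was higher with E2 in 18 pairs and lower in 7. By two-sided exact permutation tests no pair could fall below p = 0.1, the smallest that 3 against 3 libraries allow, and the smallest value adjusted over the 25 pairs was 1.0. The Rbm3os to Rbm3 ratio was the 1 whose libraries did not overlap, 1.91 higher with E2 on the log2 scale (exact permutation p = 0.1). Rbm3 had 0 to 4 counts a library, so this ratio follows Rbm3os.

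The Zeb2os to Zeb2 ratio split the libraries otherwise than by treatment. There were 0.256 and 0.381 os counts per host count in vehicle replicates 1 and 2, 3 in vehicle replicate 3, and 2.67, 2.05 and 2.18 with E2. The difference was 1.76 on the log2 scale (exact permutation p = 0.4), 2.81 without vehicle replicate 3 and 1.09 without vehicle replicate 1. Slfn5os to Slfn5 varied little, with 1.78, 1.32 and 2.14 with vehicle and 2.69, 1.65 and 2.55 with E2. Cebpzos to Cebpz ran the other way, at 0.903, 0.586 and 1.2 with vehicle and 0.75, 0.543 and 0.25 with E2 (-0.86 on the log2 scale, exact permutation p = 0.2). For Acss2os, whose host makes acetyl-CoA from acetate in the cytosol, the difference was -0.29, and for Arhgap20os it was 0.45, both with overlapping libraries.

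**Figure D5:**
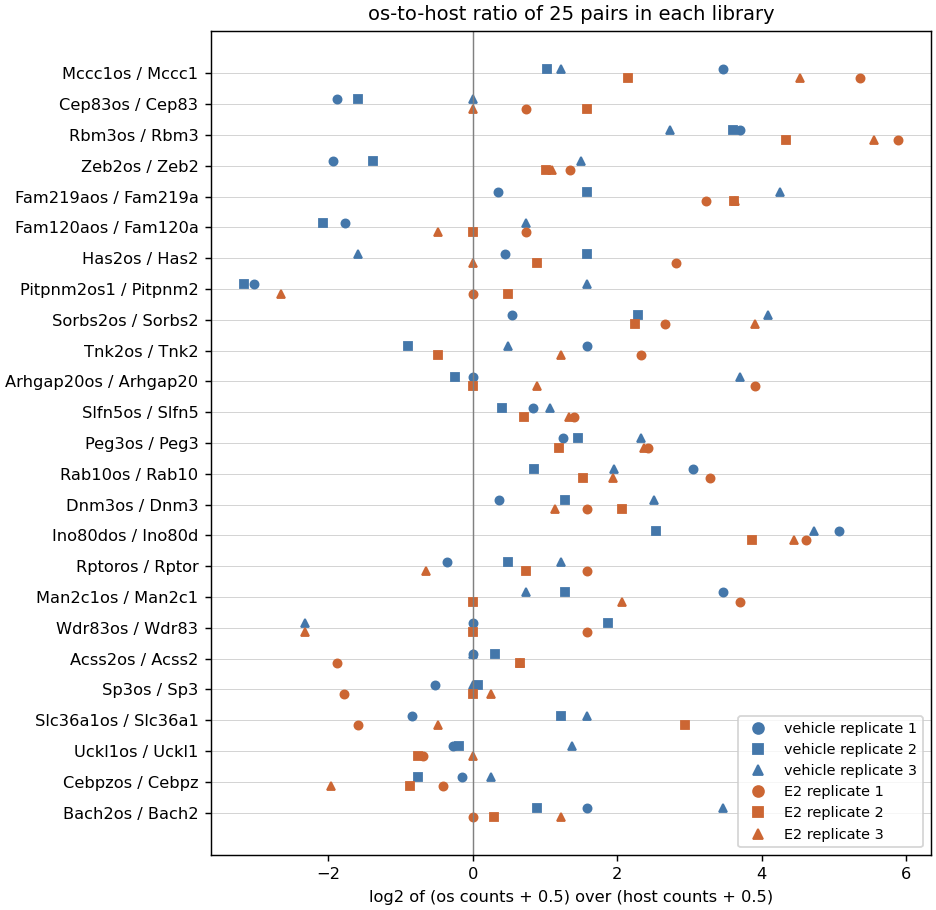
Log2 ratio of os to host counts, with 0.5 added to each, for 25 pairs in each library (blue, vehicle; orange, E2; 1 symbol per replicate number), ordered by the difference between the group means. The libraries of the groups overlap in every pair but Rbm3os and Rbm3, and in Zeb2os and Zeb2 vehicle replicate 3 lies with the E2 libraries.

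Other long noncoding RNAs gave a reference for the os RNAs. Of 33 listed ones 29 were in the table, 21 had a count, 5 were tested (Malat1, Neat1, Tsix, Kcnq1ot1 and H19) and none had an adjusted p below 0.05 by edgeR. Their summed level was 2136, 2647 and 1816 CPM with vehicle and 1771, 1939 and 1269 CPM with E2. Malat1 and H19 held most of this sum in vehicle replicates 1 and 2. In this full sum vehicle replicate 3 was the lowest vehicle library, unlike for the os RNAs. Without Malat1 and H19 the sum was 405, 512 and 1085 CPM with vehicle and 1064, 1108 and 567 CPM with E2. Vehicle replicate 3 was then the highest vehicle library. The remainder includes Tsix, with 0, 0 and 29 counts in vehicle replicates 1 to 3.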

How the data were processed

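Per the labels and the submitters' processing notes, the authors used bcl2fastq (2.17) and FastQC (0.11.2) on the reads, STAR (2.5.3a) for alignment to mm10, and featureCounts from Subread (1.6.0) for assignment to genes. The deposited file analysed here is 1 table of counts, not normalized, with 24062 gene symbols and 6 libraries. The strand setting of this step is not stated in the sources. The groups came from the labels. The os RNAs, their hosts and the gene lists were chosen with earlier results of these data known.

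Counts were analysed with edgeR (4.0.16) in R (4.3.3). Genes were kept by filterByExpr, libraries were scaled by TMM, and E2 was compared with vehicle in all 6 libraries by the quasi-likelihood test with Benjamini-Hochberg adjustment, at a threshold of 0.05. Standard errors were derived from the fold change and the F statistic. The code was tested on simulated data. CPM refer to the total counts of a library. Ratios of pairs used a pseudocount of 0.5 and two-sided exact permutation tests (SciPy 1.17.1). Poisson intervals (95%) and limits of a count of 0 cover counting error only, as no molecular identifiers are described. Pairs were placed by GENCODE M21, 4 os RNAs by a RefSeq synonym. Sequences are from RefSeq tables of GRCm38.p6.

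Os RNAs were named that passed the filter, were among the 15 with the highest mean CPM, had 10 or more counts and groups that did not overlap, or were Acss2os, Arhgap20os or Dnm3os. Alternatives used no filter, at least 10 counts over or in every one of the 6 libraries, RLE or no scaling, removal of Rn45s, DESeq2 (1.42.0), limma-voom (3.58.1), a replicate block, another pseudocount, and removal of each library or of vehicle replicates 1 and 2. Counts per kb in part of the libraries were added after the data had been seen. Replicate numbers were checked as pairs by the correlation of the deviations of same-numbered libraries from their group means, which was -0.13, 0.02 and -0.19, so that numbers were not taken to pair libraries.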

Additional observations from a re-analysis of the deposited data

How the results depend on the processing

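In the main fit by edgeR 1 os RNA was higher at an adjusted p below 0.05. With no filter, 10 counts in every library or library totals only, 0 were called. DESeq2 called 2, where 47 of 1682 genes were higher, and so did 10 counts over the 6 libraries, where 83 of 6843 were. By limma-voom 3 were called, where 63 of 1682 genes were higher. When 1 library was left out, 0 to 7 were called. The 7 were found without vehicle replicate 3, where 477 of 2162 genes were higher. With a replicate block 0 were called, Rbm3os was at 1.80 with an adjusted p of 0.119 by edgeR, and Sorbs2os was at 0.00076. At an unadjusted p of 0.05 or less by edgeR, 3 were higher, 5 by limma-voom, and 2 to 7 when 1 library was left out. At this threshold the share of all genes was computed for the main fit only (10.5% higher). Without vehicle replicates 1 and 2 the fit rests on 1 vehicle library, assumed to vary like the E2 libraries, and says nothing of stability. There the summed os level turned from 0.50 to -0.11 and the summed ratio from 0.60 to -0.13 on the log2 scale, and the log2 fold change of Ino80dos was -0.54, of Cebpzos -0.68, of Zeb2os -0.16, of Sp3os -0.37 and of Peg3os -0.29. With TMM-scaled CPM, 0 os RNAs had lower and 6 had higher E2 libraries without overlap, against 1 and 4. The share of all genes under this scaling was not computed, so these counts show no difference from other genes. Dnm3os was at 0.31 and Sorbs2os at 0.17 by limma-voom. Cebpzos was at -0.028 with no filter, -0.14 with 10 counts in every library and -0.11 with library totals only. With 1 library left out, log2 fold changes ranged over -0.032 to 1.07 for Ino80dos, -0.85 to 0.20 for Dnm3os, -0.29 to 0.47 for Cebpzos, -0.56 to 0.41 for Phtf1os, -0.49 to 0.27 for Sorbs2os and -0.70 to 0.00337 for Arhgap20os. The log2 ratio to the host ranged over -0.25 to 1.52 for Sorbs2os, -0.70 to 1.72 for Arhgap20os, -0.25 to 0.85 for Rab10os, -0.29 to 0.78 for Dnm3os, -0.59 to 0.68 for Ino80dos, -0.79 to 1.06 for Man2c1os, -0.71 to 0.55 for Acss2os and -0.74 to 0.28 for Sp3os. The cause of these changes was not tested. The 31 os RNAs with 1 to 9 counts did not pass the filter, and low depth and low level cannot be told apart for them.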
